A study of Homo sapiens with 6 samples.

Results

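The genes described here are the numbered zinc finger genes of human chromosome 19, taken as every protein-coding gene on that chromosome whose symbol is ZNF followed by a number. There were 249 such genes, of 19955 protein-coding and 61014 annotated genes in all, and 248 of them had a read in some library. LncRNA sequencing of total RNA was carried out on a paclitaxel (PTX)-resistant form of MDA-MB-231, which is an established triple-negative breast cancer cell line of human origin, after sorting for aldehyde dehydrogenase (ALDH) activity. The ALDH+ fraction is labelled BCSC (breast cancer stem cells, n = 3 libraries) and the ALDH- fraction non-BCSC (n = 3 libraries). The study describes both fractions as sorted from the resistant line, although only the BCSC titles name it. By that description no parental cells enter the comparison. Whether cells were on the drug when sorted is not given in the sources used here. The labels do not say whether the 3 libraries of a group came from separate cultures or sorts, and p-values then measure only the spread between these libraries, which may be technical.

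C2H2 zinc finger proteins read DNA with tandem fingers, each a short loop that holds a zinc ion between cysteines and histidines. Many also carry a KRAB domain, which recruits the corepressor TRIM28 (KAP1) and, through it, the histone H3 lysine 9 methyltransferase SETDB1, so that chromatin around the bound site is silenced. The family grew by tandem duplication, most of its members on chromosome 19 lie in gene clusters, and several are known to bind particular families of retroelements.

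The repeated unit of the family is shown first, because units alike in many of its genes can limit how reads are assigned to one of them. Each line is 1 finger of 84 bases on the coding strand (GRCh37), and the capitals mark the codons of the linker that joins it to the finger before. ZNF91 and ZNF93 were well expressed in both fractions, while ZNF257 and ZNF492 were called lower in BCSC from low counts.
ZNF91 (chr19:23544833-23544916, minus strand): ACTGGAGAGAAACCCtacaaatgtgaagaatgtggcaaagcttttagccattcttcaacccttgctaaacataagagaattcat
ZNF93 (chr19:20044350-20044433, plus strand): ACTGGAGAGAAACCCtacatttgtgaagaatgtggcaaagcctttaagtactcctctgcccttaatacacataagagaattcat
ZNF257 (chr19:22271483-22271566, plus strand): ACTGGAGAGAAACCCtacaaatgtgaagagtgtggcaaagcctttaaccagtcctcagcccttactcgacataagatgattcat
ZNF492 (chr19:22847633-22847716, plus strand): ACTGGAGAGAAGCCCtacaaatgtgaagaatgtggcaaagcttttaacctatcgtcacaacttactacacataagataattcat
Any pair of these 4 units shared 69 to 73 of the 84 bases. A unit of this form stood in the coding sequence of 180 of the 249 genes, with a median GC content of 41.1%. Transcripts were also aligned with each other, and the closest relative was the one with the highest product of identity and aligned length. It was at 90% identity or more along at least 200 bases for 24 genes, and at 95% or more for 10. The pairs ZNF98 with ZNF492 (97.8%) and ZNF587 with ZNF417 (97.4%) stand among them, and the values of such genes are uncertain by the reads they may share. Other genes held shorter matches at such identity, as ZNF846 did with ZNF543 (98.3% over 297 bases), so these counts do not bound that uncertainty. The readthrough genes ZNF625-ZNF20 and ZNF559-ZNF177 are members too and repeat exons of ZNF20 and ZNF177, so the same uncertainty holds for them.

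The proteins coded by these genes hold a median of 12 fingers, and ZNF208 holds the most with 36. A KRAB A box pattern was found in 201 genes and not in 45. RefSeq start regions (GRCh38.p14, 300 bases) were matched for 218 genes and held a median of 20 CG dinucleotides against 14 over all 27305 start regions. CG, which reads the same on both strands, occurs at least once in 95.8% of all start regions and in 100% of those of the ZNF genes.

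Together the 249 genes took 0.622% to 0.726% of a library's counts. Their summed level, in CPM (counts divided by TMM-scaled library totals), was 6701, 7539 and 6854 in the BCSC libraries. In the non-BCSC libraries it was 6298, 6795 and 6498. The groups overlapped, and the family as a whole did not separate the fractions.

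To find members that differed, 233 genes with enough counts were tested among 20442 genes. A gene was called at an adjusted p under 0.05 (edgeR quasi-likelihood test, Benjamini-Hochberg) with a log2 fold change beyond 1. In BCSC, 2 ZNF genes were called higher, which is 0.858% of those tested, against 8.85% of all genes. Another 10 were called lower, 4.29% against 11.3% of all genes. The median log2 fold change of the ZNF genes was 0.04, with quartiles of -0.36 and 0.37, while the median over all genes was -0.05. Of the ZNF genes 64.8% lay within 0.5 of no change on the log2 scale, and of all genes 36.3%. The ZNF genes were also better counted, with a median of 274 counts per library against 108.5 over all genes.

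With no minimum fold, 15 ZNF genes (6.44%) passed the adjusted p upwards and 17 (7.30%) downwards, where 15.3% and 14.6% of all genes did. The 3 BCSC values lay above all 3 non-BCSC values for 41 ZNF genes (17.6%) and below them for 38 (16.3%). Over all genes those shares were 24.2% and 27.9%. By each of these rules a smaller share of the chromosome 19 ZNF genes moved than of genes in general. Of the other 1226 protein-coding genes on the chromosome 681 were tested, of which 26.0% were called higher and 3.08% lower, with a median log2 fold change of 0.87. ZNF genes elsewhere in the genome numbered 266, of which 239 were tested, with 10.9% called higher and 7.11% lower.

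**Figure D1:**
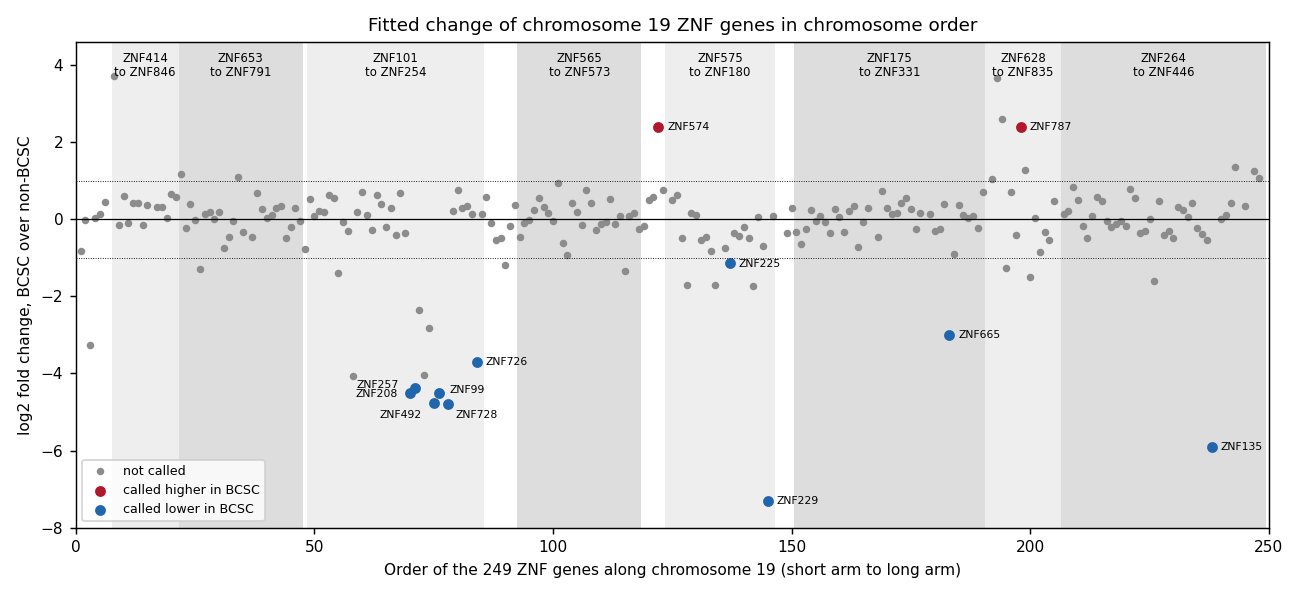
Log2 fold change (BCSC over non-BCSC, vertical axis) of the 233 tested ZNF genes in their order along chromosome 19 (horizontal axis), 1 point per gene, with the 8 clusters shaded and dotted lines at 1 and -1. Most points lie near 0; the 2 genes called higher are in red and the 10 called lower in blue, 6 of them in the ZNF101 to ZNF254 cluster, and the fitted value of ZNF229, which had 0 counts in BCSC, depends on the prior count of the fit.

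ZNF574 (chr19:42572629-42585704, GRCh37, 18 fingers) and ZNF787 (chr19:56598732-56632664, 7 fingers) were the 2 genes called higher, and neither holds the KRAB pattern. The level of ZNF574 was 18.4, 11.3 and 8.71 CPM in BCSC and 1.98, 1.94 and 3.36 CPM in non-BCSC. Its log2 fold change was 2.40 (SE 0.45, adjusted p = 0.00543). ZNF787 stood at 9.06, 6.65 and 11.2 CPM in BCSC and at 1.65, 2.56 and 0.863 CPM in non-BCSC. For ZNF787 the log2 fold change was 2.40 (SE 0.53, adjusted p = 0.0108). In both genes every BCSC library lay above every non-BCSC library, and both calls held when any 1 library was left out. Both are GC-rich, with transcripts of 60.6% and 64.7% GC, against a median of 45.6% for the tested ZNF genes.

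Among the genes called lower, ZNF225 (chr19:44616334-44638975), a KRAB gene with 17 fingers, was the only one with 10 or more counts in every library. It measured 9.01, 9.20 and 9.86 CPM in BCSC and 17.6, 25.7 and 18.9 CPM in non-BCSC, with a log2 fold change of -1.15 (SE 0.26, adjusted p = 0.0121). The groups stood apart, but the adjusted p was 0.0612 without BCSC replicate 2. Without non-BCSC replicate 2 it was 0.0547 and the log2 fold change -0.92. ZNF224, a KRAB gene next to it and its closest relative in sequence (86.4% identity), had a log2 fold change of -0.76 and did not pass (adjusted p = 0.0616). Under 2-fold, ZNF224 passed with RLE size factors (0.0423), at least 10 counts in every library (0.0170) and the replicate block (0.0359). So it did with background removed (0.0393) and by DESeq2 (0.0187). It did not pass with any 1 library left out, and was 0.23 (adjusted p = 0.616) after the GC and length correction.

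The other 9 genes called lower averaged fewer than 50 counts per library, and 7 of them (ZNF208, ZNF257, ZNF726, ZNF728, ZNF229, ZNF665 and ZNF135) are named because they were called, after their values were seen. These 9 passed the filter on low counts through the non-BCSC libraries, so their direction was partly set by that filter. No read of ZNF229 was counted in the 3 BCSC libraries (0 each), where the non-BCSC libraries held 15, 17 and 14. Set against a floor of 3 counts per library, it was at least 7.78-fold lower in BCSC. ZNF135 had 0, 0 and 2 counts in BCSC against 26, 31 and 38 in the other fraction, a ratio of 73.2 (95% exact interval 19.7 to 613, counting error only). The median over all tested ZNF genes stayed at 0.04 with ZNF229 set to its bound.

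ZNF726 was counted 4, 12 and 11 times in BCSC against 44, 95 and 98 times in non-BCSC (log2 fold change -3.70, SE 0.74, adjusted p = 0.00695). ZNF665 was counted 20, 6 and 8 times against 69, 56 and 47 times (log2 fold change -3.0, SE 0.70, adjusted p = 0.0131). In these genes, as in all 12 called, the groups did not overlap. Of the 10 genes called lower, 7 were still called without BCSC replicate 1, 5 without BCSC replicate 2 and 9 without BCSC replicate 3. Without non-BCSC replicates 1, 2 and 3 in turn, 8, 6 and 6 were still called.

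**Figure D2:**
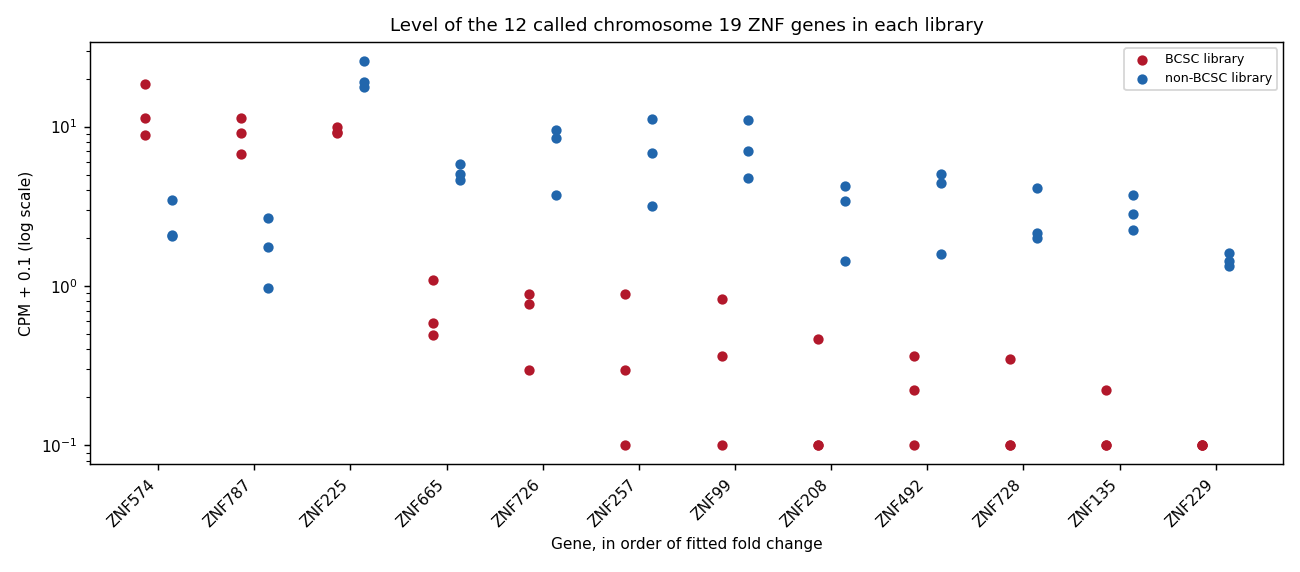
CPM plus 0.1 in each library (log scale, vertical axis) of the 12 called ZNF genes, ordered from the highest to the lowest fitted fold change (horizontal axis), with BCSC libraries in red and non-BCSC libraries in blue. The 3 points of one fraction lie apart from the 3 of the other in every gene, and the 9 genes on the right are below 1 CPM in each BCSC library.

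To set these low levels against genes that this line is not thought to express, each ZNF gene was compared with the olfactory receptor genes, which serve in smell neurons. Their summed level was 41.2, 57.5 and 153 CPM in the BCSC libraries and 544, 701 and 1166 CPM in the non-BCSC libraries. The lowest non-BCSC library thus held 3.55 times the highest BCSC library, and 69 of 136 olfactory receptor genes tested (50.7%) were called lower in BCSC and 0 higher (edgeR; 94 lower and 0 higher at an unadjusted p under 0.05, and likewise 94 and 0 by DESeq2). Levels per kb of transcript were then divided by the level per kb of these genes in the same library. The length of a ZNF gene was the mean of its transcripts weighted by counts, and that of an olfactory receptor gene the plain mean.

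In non-BCSC, 9 of the 10 ZNF genes called lower stood below 5 times the olfactory receptor level per kb. The values there were 0.275 for ZNF229, 0.845 for ZNF492, 0.892 for ZNF135, 0.937 for ZNF99 and 1.12 for ZNF728. ZNF665 stood at 1.43, ZNF257 at 2.02, ZNF208 at 2.35 and ZNF726 at 3.62. ZNF225, the remaining gene, stood at 7.93. Both genes called higher were near that level in non-BCSC, at 0.740 for ZNF574 and 1.04 for ZNF787, and far above it in BCSC, at 55.7 and 57.4. The olfactory receptor level was itself lower in BCSC, so these ratios differ more between the fractions than the CPM of either gene.

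Sorted by this ratio in non-BCSC, 45 ZNF genes were under 2 times the olfactory receptor level, with 2 called higher and 6 lower. Of the 131 genes at 2 to 10 times, 0 were called higher and 4 lower by edgeR (0 and 6 at an unadjusted p under 0.05, 0 and 7 by DESeq2). Among the 57 genes at 10 times or more, 0 were called in either direction by edgeR, at an unadjusted p under 0.05 or by DESeq2, although 6 passed the adjusted p upwards and 5 downwards with no minimum fold. In that class the log2 fold changes ran from -0.90 to 0.83. The level in non-BCSC also enters the fold change, so genes higher in BCSC fall into the lower classes by construction. Sorted by the level in BCSC instead, a choice made after the data were seen, 207 tested genes stood at 10 times or more, with 2 called higher (ZNF574 and ZNF787) and 1 lower (ZNF225). The olfactory receptor level they were divided by is lower in BCSC, which makes that class larger. After the correction for GC content and length described further on, 22 of the 57 genes were called higher and 2 lower, and with the background of olfactory receptor counts removed 0 and 1.

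The count per kb of the olfactory receptor genes was next subtracted from every gene, over the plain mean length of its transcripts. With that background removed, 222 ZNF genes could be tested, of which 8 were called higher and 4 lower, where 10.8% and 6.57% of all genes were. Only 4 of the 10 genes called lower were still testable, and 3 of those (ZNF225, ZNF257 and ZNF726) were called again. Both genes called higher were called again. Markers of other cells moved with the fractions as well. Of the 6 markers of blood, endothelium, liver and muscle with a row, 3 were tested, of which 2 were called lower. Their summed level was 1.38 to 3.69 CPM in BCSC and 18.4 to 33.6 CPM in non-BCSC. Most of it was the leukocyte gene PTPRC, at 13.2 to 22.6 CPM in non-BCSC, while CD3E and CD14 stayed under 2 CPM in every library. The part of any of these in the ZNF results was not tested.

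**Figure D3:**
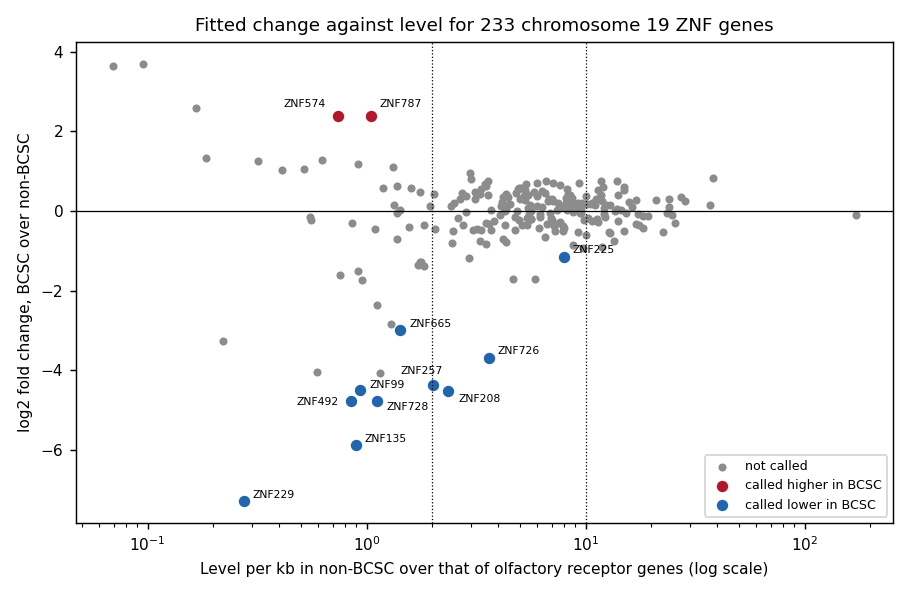
Log2 fold change (BCSC over non-BCSC, vertical axis) of 233 ZNF genes against their level per kb in non-BCSC divided by that of olfactory receptor genes (log scale, horizontal axis), with dotted lines at 2 and 10 times. Called genes are in colour; the 57 genes at 10 times or more stay between -0.90 and 0.83, in a plot whose horizontal axis also enters the vertical one.

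Along the chromosome, runs of ZNF genes with under 0.5 Mb between neighbours were formed, and 8 runs held at least 8 genes. The cluster from ZNF101 to ZNF254 (chr19:19779605-24312770) held 37 genes, of which 33 carry the KRAB pattern. Of its 36 tested genes, 6 were called lower and 0 higher, while 4 others (ZNF93, ZNF431, ZNF100 and ZNF724) passed the adjusted p upwards at less than 2-fold. Of all genes 11.3% were called lower. The share was 20.2% for all genes with 34.9% to 43.7% GC, a range that holds the cluster's median of 41.8%. In that range it was 15.5% for other protein-coding genes, which were better counted, and 10.2% for the chromosome 19 ZNF genes. Its summed level was 673, 840 and 795 CPM in BCSC and 576, 685 and 729 CPM in non-BCSC, so the groups overlapped.

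The calls in that cluster lay close together. From ZNF208 to ZNF728 (chr19:22115760-23185978), a stretch singled out after its values were seen, 9 ZNF genes stand side by side and 8 were tested. All 8 were below in every BCSC library, with log2 fold changes from -4.78 to -2.36, and 5 (ZNF208, ZNF257, ZNF492, ZNF99 and ZNF728) were called. The other 3 (ZNF676, ZNF729 and ZNF98) had adjusted p-values of 0.0684 to 0.101. No gene of the stretch exceeded 16 counts in a BCSC library or 115 in a non-BCSC library. Per kb, the 8 genes stood at 0.191 to 2.83 times the olfactory receptor level in BCSC and at 0.593 to 2.35 times in non-BCSC. The olfactory receptor genes that were tested had a median log2 fold change of -3.34, within the range of the stretch. Both sets passed the filter on low counts mostly through the non-BCSC libraries, so this likeness was partly set by that filter. In the 28 other tested genes of the cluster the median log2 fold change was 0.19 and 1 was called lower (ZNF726).

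The cluster from ZNF575 to ZNF180 (chr19:44029649-45004576) held 23 genes, including ZNF224, ZNF225 and ZNF229. Its summed level was 230, 241 and 210 CPM in BCSC and 261, 307 and 322 CPM in non-BCSC, and every BCSC library was below every non-BCSC library. The median log2 fold change of its 21 tested genes was -0.49, the lowest of the 8 clusters, with 2 called lower and 6 of 21 above 0. Apart from ZNF225 and ZNF229 none of its genes passed the adjusted p in the main edgeR fit, even with no minimum fold. ZNF224 passed in some of the other fits, as given above.

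Summed levels stood apart in 3 other clusters. The ZNF414 to ZNF846 cluster (chr19:8574562-9903856, 14 genes) was higher in BCSC, at 608, 690 and 649 CPM against 511, 525 and 491. In it, ZNF562 rose without reaching 2-fold, from 86.3, 87.7 and 81.1 CPM in non-BCSC to 132, 140 and 133 CPM in BCSC (log2 fold change 0.66, SE 0.11, adjusted p = 0.0027). Its sums stayed apart without ZNF562. The ZNF264 to ZNF446 cluster (chr19:57702868-58992597, 43 genes) was also higher, at 1409, 1411 and 1323 CPM against 1290, 1276 and 1228. Without ZNF460, the gene of that cluster with the largest difference, the sums were 1192, 1208 and 1102 CPM in BCSC and 1167, 1155 and 1113 CPM in non-BCSC, and they overlapped. The ZNF628 to ZNF835 cluster (chr19:55987984-57183151, 16 genes) was lower, at 151, 165 and 151 CPM against 180, 192 and 168. Without ZNF470 its sums overlapped too, at 102, 94.1 and 101 CPM in BCSC and 104, 103 and 85.5 CPM in non-BCSC. In the last cluster, the median log2 fold change of single genes was 0.24, opposite to the sum. Its median transcript GC content was 61.9%, the highest of the 8, and 2 of its less GC-rich genes, ZNF470 and ZNF667, passed the adjusted p downwards at less than 2-fold.

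In the remaining clusters the summed levels overlapped. They are ZNF653 to ZNF791, ZNF565 to ZNF573 and ZNF175 to ZNF331, with median log2 fold changes of 0.02, 0.03 and 0.08 and 1 call in all, that of ZNF665 in the ZNF175 to ZNF331 cluster. The sums are over genes counted in the same libraries, and no test was made of them.

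**Figure D4:**
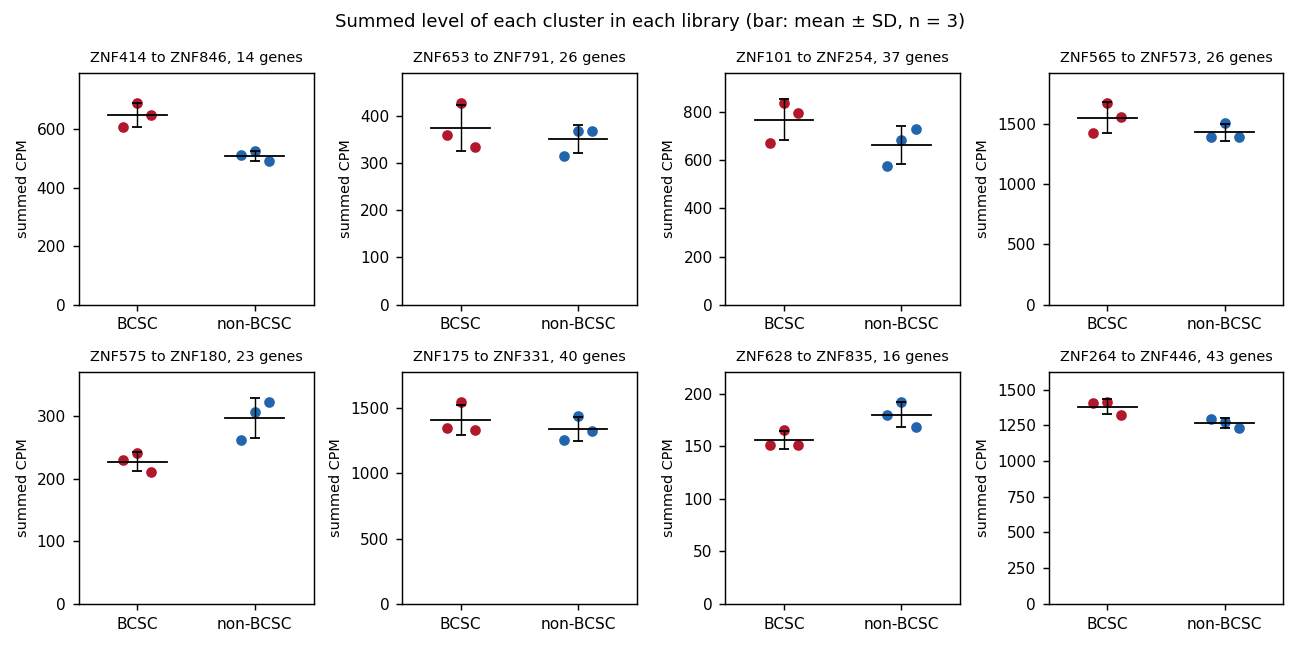
Summed CPM (vertical axis, from 0) of the genes of each of the 8 clusters in the 3 BCSC (red) and 3 non-BCSC (blue) libraries, with the mean ± SD in black. The groups stand apart in the ZNF414 to ZNF846, ZNF575 to ZNF180, ZNF628 to ZNF835 and ZNF264 to ZNF446 clusters and overlap in the other 4; without ZNF470 and ZNF460, the last 2 named overlap as well.

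GC content was kept in view throughout, because over all 20442 genes the log2 fold change rose with it (Spearman's rho 0.55, a description across genes of the same 6 libraries). Over the 233 ZNF genes of chromosome 19 that rho was 0.17, and over the 239 ZNF genes of other chromosomes it was 0.61. In 4 equal groups of the ZNF genes by GC content, from the lowest to the highest, their median log2 fold changes were -0.01, 0.10, -0.11 and 0.14. Over all genes in the same GC ranges the medians were -0.60, -0.32, -0.12 and 0.63. The other protein-coding genes of those ranges, which were better counted than all genes, had medians of -0.23, -0.13, -0.0057 and 0.72. In the group with the lowest GC content, 10.2% of the ZNF genes and 20.2% of all genes were called lower. In the group with the highest, 3.45% of the ZNF genes and 20.7% of all genes were called higher.

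The most GC-rich tested genes, ZNF865 (70.9%), ZNF414 (69.3%) and ZNF580 (67.9%), had log2 fold changes of 2.58, 3.71 and 0.70. None of them passed the test (adjusted p of 0.116, 0.0735 and 0.197), and ZNF414 rested on 61, 28 and 17 counts in BCSC against 5, 0 and 0. The least GC-rich were ZNF99 (34.9%), ZNF681 (35.8%) and ZNF492 (35.9%). ZNF99 rested on 0, 4 and 12 counts against 56, 78 and 114 (log2 fold change -4.50, adjusted p = 0.0124). ZNF681, as AT-rich but better counted, stood at 9.56, 16.2 and 12.7 CPM in BCSC and 9.00, 15.3 and 10.7 CPM in non-BCSC, and its groups overlapped.

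When each library was corrected for GC content and length by a smooth curve through all genes, 72 ZNF genes were called higher and 10 lower. Over all genes 20.0% and 8.65% were then called. The median log2 fold change of the ZNF genes rose to 0.60, that of all genes to 0.24, and the ZNF genes' rho with GC content turned to -0.50. In that fit ZNF574 was still called (log2 fold change 1.20), ZNF787 was not (0.62), and 7 of the 10 genes called lower were called again. ZNF225 was not among them (-0.23). With the curve drawn through genes of at least 10 counts in every library, 200 ZNF genes were tested and 3 were called higher and 8 lower, with a median of 0.06. Over all genes 4.96% and 8.4% were called in that fit. The genes behind the curve and the genes tested both differed between these fits, and the cause of the difference was not tested.

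**Figure D5:**
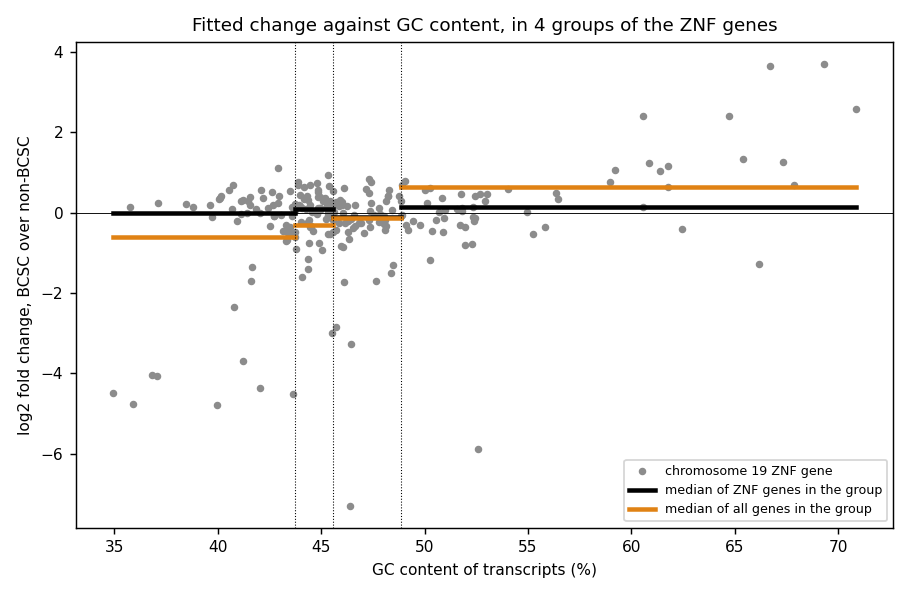
Log2 fold change (BCSC over non-BCSC, vertical axis) of 233 ZNF genes against the GC content of their transcripts in % (horizontal axis), with dotted lines between the 4 groups. Black bars are the ZNF medians per group (-0.01, 0.10, -0.11 and 0.14) and orange bars the medians of all genes in the same ranges (-0.60, -0.32, -0.12 and 0.63).

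Of the 5 members with the highest level per kb of transcript, 1 passed the adjusted p and 0 were called. ZNF146, a protein of fingers alone, measured 373, 475 and 443 CPM in BCSC and 445, 485 and 446 CPM in non-BCSC (log2 fold change -0.09, SE 0.11). ZNF460 was next and stood at 217, 203 and 221 CPM in BCSC and 123, 121 and 115 CPM in non-BCSC. Its log2 fold change of 0.83 (SE 0.10, adjusted p = 0.00075) was under 2-fold, and the groups were far apart. ZNF83, ZNF260 and ZNF480 had log2 fold changes of 0.14, 0.25 and 0.35 and did not pass. After the GC and length correction the values of all 5 lay beyond 1, at 1.07 for ZNF146, 1.38 for ZNF460, 1.18 for ZNF83, 1.97 for ZNF260 and 1.79 for ZNF480.

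Of the members known for binding retroelements, ZNF93, which recognises L1 elements, passed the adjusted p at less than 2-fold. It stood at 49.2, 59.6 and 51.3 CPM in BCSC and 33.7, 36.0 and 34.8 CPM in non-BCSC (log2 fold change 0.62, SE 0.16, adjusted p = 0.017). The adjusted p of ZNF93 was 0.0871 without BCSC replicate 2 and 0.0796 with background removed. ZNF91, which recognises SVA elements, measured 85.1, 101 and 93.3 CPM against 79.3, 83.7 and 65.5 CPM. All its BCSC values were higher, but it did not pass (log2 fold change 0.29, adjusted p = 0.139). After the GC and length correction ZNF91 was called higher, at 1.73 (adjusted p = 0.00058), and ZNF93 at 1.38. ZNF649, ZNF417 and ZNF587 had log2 fold changes of -0.26, 0.41 and 0.05, with overlapping groups. ZNF274, which brings SETDB1 to other ZNF genes, measured 24.5, 21.7 and 13.8 CPM in BCSC and 13.3, 24.2 and 22.2 CPM in non-BCSC and did not differ beyond its spread (log2 fold change 0.01, SE 0.31).

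Among members studied in tumours, 2 passed the adjusted p, neither at 2-fold. ZNF331, often methylated in gastrointestinal tumours, stood at 39.5, 40.3 and 34.7 CPM in BCSC and 22.7, 28.2 and 19.9 CPM in non-BCSC (log2 fold change 0.69, adjusted p = 0.0278). Its adjusted p was 0.0861, 0.102 and 0.0723 without BCSC replicate 1, BCSC replicate 2 and non-BCSC replicate 3. With any other library left out it stayed under 0.05. ZNF331 also missed with background removed (0.0693) and when each library had to hold 10 counts (0.0578). It passed under RLE size factors (0.0452), DESeq2 (0.0248), the replicate block (0.0141) and no filter on low counts (0.0140). After the GC and length correction it was called, at 1.0002 (adjusted p = 0.00759). ZNF667 fell, from 39.4, 38.2 and 33.6 CPM in non-BCSC to 20.9, 19.1 and 21.5 CPM in BCSC (log2 fold change -0.85, adjusted p = 0.0096). The adjusted p of ZNF667 was 0.0599 without BCSC replicate 2, and its log2 fold change was -0.20 (adjusted p = 0.54) after the GC and length correction. ZNF382, ZNF471, ZNF582 and ZNF154 had log2 fold changes of 0.32, -0.33, -1.50 and -1.61, none of which passed, and all 4 had overlapping groups. ZNF473, which acts in histone mRNA processing, ZNF85 and ZNF43 had values of 0.30, 0.70 and -0.36 and did not pass. ZNF132 and ZNF296 had too few counts to be tested.

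By protein, 195 tested genes held the KRAB pattern, of which 0 were called higher and 9 lower by edgeR (0 and 15 at an unadjusted p under 0.05, 0 and 14 by DESeq2), and 13 and 16 passed the adjusted p with no minimum fold. Of 35 without it, 2 were called higher and 1 lower. The genes called lower were 4.62% of those with the pattern, where 11.3% of all genes were. The median GC content was 45.3% with the pattern and 52.9% without it, and the 2 features cannot be told apart here.

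The genes through which KRAB proteins silence chromatin were followed beside them, as a list of 22, all tested. SUV39H1 and EHMT2, both histone H3 lysine 9 methyltransferases, were called higher by edgeR and 0 were called lower, as at an unadjusted p under 0.05 and by DESeq2. SUV39H1 stood at 16.8, 8.42 and 8.47 CPM in BCSC and 3.05, 1.86 and 3.16 CPM in non-BCSC (log2 fold change 2.06, adjusted p = 0.0107; 0.0691 without BCSC replicate 1). EHMT2 stood at 66.2, 44.8 and 31.1 CPM against 26.3, 22.7 and 17.4 CPM (log2 fold change 1.10, adjusted p = 0.0189). The call of EHMT2 was lost without BCSC replicate 1 (log2 fold change 0.77), non-BCSC replicate 2 (adjusted p = 0.0561) or non-BCSC replicate 3 (log2 fold change 0.97), and also with at least 10 counts in every library (log2 fold change 0.95) and after the GC and length correction (log2 fold change 0.098). SUV39H1 kept its call after that correction, at 1.07 (adjusted p = 0.0456). With no minimum fold, 9 of the 22 passed upwards, among them CBX5 (HP1 alpha, 0.86) and RESF1 (0.83), and CBX1 (HP1 beta, -0.32) passed downwards. The median of the list was 0.42. Of all genes 8.85% were called higher and 15.3% passed upwards with no minimum fold, and of all protein-coding genes 12.03% and 21.1%, against 9.09% and 40.9% of the list.

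TRIM28 measured 179, 128 and 123 CPM in BCSC and 106, 60.3 and 70.6 CPM in non-BCSC (log2 fold change 0.86, SE 0.22, adjusted p = 0.0175). Its groups stood apart, but its transcripts hold 59.5% GC and its value was -0.35 after the GC and length correction. The adjusted p of TRIM28 was 0.0507 with background removed and ran from 0.0074 to 0.0672 with 1 library left out. SETDB1, the methyltransferase the study follows, measured 80.3, 66.3 and 55.8 CPM in BCSC and 53.0, 55.0 and 40.3 CPM in non-BCSC. All 3 BCSC values were higher, but it did not pass (log2 fold change 0.45, SE 0.18, adjusted p = 0.091). With no filter on low counts SETDB1 passed the adjusted p (0.0254), and so it did after the GC and length correction (0.0332, log2 fold change 0.75). It did not pass with background removed (log2 fold change 0.26, adjusted p = 0.306) or with any 1 library left out (0.0636 to 0.297).

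Read out transcript by transcript, as the counts were deposited, the family gave fewer calls. Of 1693 transcripts of the ZNF genes, 505 were tested, of which 2 were higher and 0 lower in BCSC (edgeR; 52 passed an unadjusted p under 0.05 with a log2 fold change beyond 1). Over all transcripts 0.597% and 0.187% were called. ZNF548-201 had 480, 353 and 405 counts in BCSC and 0 in every non-BCSC library. ZNF700-201 had 270, 212 and 201 counts in BCSC and likewise 0 in non-BCSC. Summed over its transcripts, ZNF548 stood at 39.8, 41.4 and 31.7 CPM in BCSC and 32.3, 36.0 and 37.6 CPM in non-BCSC, and ZNF700 overlapped between the groups too. The contrast lay in how counts were spread over the transcripts of 1 gene. The submitters' notes list featureCounts, but how it was set to assign reads among transcripts is not given in the sources used here.

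Facts of the libraries touch all of these values. Total counts were 15925943 to 21215352 in BCSC and 9898588 to 12263667 in non-BCSC, so 3 counts, the limit that a count of 0 allows, equal 0.141 to 0.303 CPM. VIM, CD44 and AXL, which this mesenchymal line expresses, were high in both fractions. PGR, which a triple-negative line should lack, stood at 0.326 to 1.39 CPM in BCSC and 7.26 to 19.1 CPM in non-BCSC. Per kb, PGR was at 0.612 times the olfactory receptor level in BCSC and 1.14 times in non-BCSC. ERBB2 averaged 64.7 CPM in BCSC and 78.3 CPM in non-BCSC, and its groups overlapped. ESR1 (log2 fold change -1.19, adjusted p = 0.0678) and CDH1 (-0.98, 0.129) were not called, and EPCAM had too few counts to be tested. ALDH1A3 averaged 29.8 CPM in BCSC and 17.5 CPM in non-BCSC (adjusted p = 0.0577), while ALDH1A1 and ALDH3A1 were called lower in BCSC (log2 fold changes -3.63 and -1.49). ALDH1A1 rested on 0, 5 and 6 counts in BCSC against 38, 28 and 32 in non-BCSC. Its adjusted p was 0.0589 to 0.107 with 1 library left out, 0.0569 with background removed and 0.0845 after the GC and length correction. That of ALDH3A1 reached 0.163 with 1 library left out. It was 0.0792 with background removed and 0.00048 after the GC and length correction. In bulk libraries such as these, fewer cells that express a gene and less of its RNA per cell cannot be told apart.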

How the data were processed

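The deposited values are counts of reads per transcript that the authors made in whole numbers, without normalization. The study's methods name HISAT2 with hg19, while the submitters' processing notes list HISAT2, featureCounts, DESeq2 and hg38; the annotation and the use of strand are not given in the sources used here. Libraries kept strand (dUTP) and used random primers. Of 252618 transcripts, 249616 (98.8%) matched GENCODE v44 on GRCh37, whose coordinates are used, and were summed to 61014 genes.

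The test was edgeR's robust quasi-likelihood test by group (version 4.0.16 in R 4.3.3), after filterByExpr and TMM. P-values were adjusted by Benjamini-Hochberg over all genes tested. Members and lists were chosen with earlier results of these data known. Genes named were a list by role, called genes with at least 50 counts on average, the 5 highest per kb, the 3 highest and 3 lowest in GC content, and corepressors called. Fingers and KRAB patterns were read from the longest reading frame of each GENCODE canonical transcript, in place of the RefSeq proteins first planned; identity came from BLAST 2.17.0. The curve of the GC and length correction was a loess (span 0.3). The test was tried on simulated data. Alternatives were RLE size factors, DESeq2 1.42.0, other filters and thresholds, a replicate block, each library left out, and both corrections. Counts carry no molecular identifiers, so intervals and limits cover counting error only.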

Additional observations from a re-analysis of the deposited data

How the results depend on the processing

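Under RLE size factors, no filter on low counts and the replicate block, the ZNF genes called higher numbered 2, 6 and 2 and those called lower 12, 13 and 12, with medians of -0.055, 0.10 and 0.085. DESeq2 called 4 higher and 17 lower (median -0.054), and all 12 genes of the report were among them. With at least 10 counts in every library, 1 was called higher and 9 lower (median -0.069, 1 corepressor higher). The GC and length correction gave 72 and 10 with 10 corepressors higher and a median of 0.60, and with the replicate block added it gave 71, 9 corepressors and 0.60. Background removal gave 8 and 4. With no minimum fold there were 15 and 17, and 9 corepressors higher and 1 lower; at an unadjusted p, 5 and 17. Transcripts as deposited gave 2 and 0. Leaving out a library gave 3 to 5 ZNF genes higher, 5 to 14 lower, 0 to 4 corepressors higher, 0 lower and medians of -0.02 to 0.11. A gap of 1 Mb gave 7 clusters in place of 8. The GC and length correction with the block, the one with the filter of 10 counts, and the transcripts were added after the data were seen, as were the cluster sums without their leading gene (ZNF628 to ZNF835: BCSC minus non-BCSC 1.68 CPM without ZNF470). The cause of these differences was not tested.

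Same-numbered libraries correlated at 0.18, 0.01 and 0.22 in their deviations from the group means and BCSC replicate 2 correlated best with non-BCSC replicate 1 (0.05), so the numbers were not taken to pair the libraries. The replicate block called 2 higher and 12 lower, 9 of the 10 lower among them, and gave SETDB1 an adjusted p of 0.0292.

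Of 583 values of 41 named genes under the alternatives, 472 kept their direction and their side of the threshold, 40 lost the call, 30 gained one and 41 changed sign, 37 of these with no call in the alternative. Under the GC and length correction (with the block in second place) the log2 fold changes were 0.35 and 0.33 for ZNF649, -0.59 and -0.55 for ZNF274, 0.23 and 0.12 for ZNF224, 0.69 and 0.66 for ZNF471, 0.73 and 0.71 for ZNF43, 1.07 and 1.06 for ZNF146, -1.26 and -1.30 for ZNF580 and -0.35 and -0.35 for TRIM28. With that correction and at least 10 counts in every library they were -0.041 for ZNF417, -0.083 for ZNF587, -0.70 for ZNF274, -0.16 for ZNF473, 0.14 for ZNF146, -0.40 for ZNF580 and -0.032 for TRIM28. ZNF587 was -0.035 under RLE size factors, -0.035 under DESeq2, -0.093 under the filter of 10 counts and -0.13 with background removed, and ZNF274 was -0.086, -0.086, -0.15 and -0.12. Under that filter ZNF83 was -0.0089 and ZNF681 -0.018, and with background removed ZNF83 was -0.076. Leaving out a library gave -0.069 to 0.18 for ZNF587, -0.17 to 0.22 for ZNF274, -0.14 to 0.0025 for ZNF146 and -0.039 to 0.42 for ZNF681.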
